A study of Homo sapiens with 6 samples.

Results

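Cholesterol and fatty acid synthesis genes were followed in ribosome-bound mRNA of MDA-MB-231 cells, a human triple-negative breast cancer line that carried an EGFP-tagged ribosomal protein L10a. The 31 genes were chosen by name for their place in the SREBP pathway and in lipid synthesis, with earlier results of these data known. They were read in all 6 libraries. All 31 were present among the 21619 genes of the count files, and all 31 passed the filter on low counts, as did 13548 genes in all. Every culture had been held in 0.2% serum for 24 h. Untreated cells then received neither factor (0 ng/mL CXCL12 and 0 ng/mL IGF1). The lower dose combined CXCL12 at 30 ng/mL and IGF1 at 10 ng/mL. The higher dose combined CXCL12 at 300 ng/mL and IGF1 at 100 ng/mL, and both lasted 6 h. Each group had 2 libraries, described by the submitters as biological replicates and lettered a and b. All groups carried the tag and all were starved, so no unstarved culture and no culture given a single factor was compared. Tagged ribosomes were recovered with antibody to GFP, so a value measures how much of the recovered RNA a gene supplied. A change in the amount of an mRNA and a change in its loading onto ribosomes cannot be told apart here.

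Sterol regulatory element-binding proteins (SREBPs) are transcription factors made as precursors in the endoplasmic reticulum membrane. SREBF1 and SREBF2 encode them, SCAP carries them to the Golgi apparatus for cleavage when sterols are scarce, and INSIG1 holds the SCAP complex back when sterols are plentiful. SREBP-2 acts mainly on cholesterol synthesis and SREBP-1c mainly on fatty acid synthesis, which insulin-type signals stimulate through AKT and mTORC1. Cholesterol is built from acetyl-CoA through mevalonate and squalene, and fatty acids from the same acetyl-CoA through malonyl-CoA. The members were ordered by role as 4 SREBP regulators, 7 enzymes of the mevalonate steps, 9 enzymes from squalene to cholesterol, 8 enzymes of fatty acid synthesis and 3 other SREBP-responsive genes. The sterol branch below is the 16 enzymes of the mevalonate and squalene steps, and the fatty acid branch is the 8 fatty acid enzymes.

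SREBPs bind sterol regulatory elements (SREs) in promoters and can also bind the E-box. The factor NF-Y binds the CCAAT box, and SREBPs often act beside it. RefSeq promoter windows (GRCh38.p14, from 250 bases before to 50 bases after the gene start) were found for 27 members and were searched on both strands. Promoter windows of ACAT2, FDFT1, SQLE and FASN were not analysed here. The SRE letters TCACNCCAC were found in 1 member, SREBF2 (3.7% of 27), and in 1.39% of 27305 genes. The looser form TCACNCNAC, which includes every match of the stricter one, was found in 5 members, SREBF2, FDPS, HSD17B7, FADS2 and ACSS2 (18.5%), and in 3.13% of genes. CCAAT was found in 20 members (74.1%) and in 39.7% of genes, and the E-box CACGTG in 3 members, INSIG1, LSS and SCAP (11.1%), and in 8.77% of genes. Counted per window and not per gene, the shares over all 35116 windows were 1.13%, 2.55%, 34.6% and 7.26% in the same order. A match describes letters in a window, not binding.

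The following 5 windows are shown because they hold the motif matches beside which contrasting changes were measured. SREBF2 and FDPS fell at both doses, HMGCS1 fell at the lower and rose at the higher dose, INSIG1 rose at the higher dose, and TMEM97 rose at both. Capitals mark every match to the 4 motifs, read 5' to 3' on the gene's strand, with ATTGG as CCAAT on the opposite strand. HMGCS1 had a further listed start, whose window is not shown.

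SREBF2 (chr22:41832855-41833154, plus strand): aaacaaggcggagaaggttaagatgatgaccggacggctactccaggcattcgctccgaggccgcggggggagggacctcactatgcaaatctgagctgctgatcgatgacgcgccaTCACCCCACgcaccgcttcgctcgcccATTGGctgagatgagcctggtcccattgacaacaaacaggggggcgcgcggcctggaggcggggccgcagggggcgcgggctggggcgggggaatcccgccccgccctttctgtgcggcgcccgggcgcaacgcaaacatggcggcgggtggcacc

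FDPS (chr1:155308616-155308915, plus strand): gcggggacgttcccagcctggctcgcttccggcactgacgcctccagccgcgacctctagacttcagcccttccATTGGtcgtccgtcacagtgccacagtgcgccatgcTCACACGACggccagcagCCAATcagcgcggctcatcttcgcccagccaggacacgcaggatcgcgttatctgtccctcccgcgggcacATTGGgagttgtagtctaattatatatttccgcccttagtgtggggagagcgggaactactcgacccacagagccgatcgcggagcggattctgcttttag

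HMGCS1 (chr5:43313363-43313662, minus strand): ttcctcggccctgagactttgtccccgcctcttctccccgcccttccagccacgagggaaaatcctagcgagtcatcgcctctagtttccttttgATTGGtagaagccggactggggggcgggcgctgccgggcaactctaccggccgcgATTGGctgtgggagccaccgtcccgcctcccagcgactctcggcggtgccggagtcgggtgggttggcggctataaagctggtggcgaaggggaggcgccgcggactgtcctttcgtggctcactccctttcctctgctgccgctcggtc

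INSIG1 (chr7:155297628-155297927, plus strand): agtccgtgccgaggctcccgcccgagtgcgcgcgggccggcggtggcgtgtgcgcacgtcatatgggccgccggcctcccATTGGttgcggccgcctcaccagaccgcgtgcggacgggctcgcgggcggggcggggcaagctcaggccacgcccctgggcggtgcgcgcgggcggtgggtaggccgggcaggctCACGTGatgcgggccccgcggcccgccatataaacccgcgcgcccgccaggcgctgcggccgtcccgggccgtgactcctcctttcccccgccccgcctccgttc

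TMEM97 (chr17:28318950-28319249, plus strand): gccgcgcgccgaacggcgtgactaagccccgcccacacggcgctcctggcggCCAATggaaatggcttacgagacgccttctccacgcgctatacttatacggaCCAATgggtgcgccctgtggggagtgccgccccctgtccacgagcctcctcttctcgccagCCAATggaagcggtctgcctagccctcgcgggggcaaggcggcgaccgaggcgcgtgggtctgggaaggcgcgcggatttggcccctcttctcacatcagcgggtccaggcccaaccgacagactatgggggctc

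The SREBF2 window held the SRE from position −133 relative to the start, with a CCAAT box on the opposite strand from position −106. FDPS, which encodes farnesyl diphosphate synthase, held the looser form from position −140, between CCAAT matches. HMGCS1 and TMEM97 held CCAAT matches and no match to either SRE form. Of the members that rose at the higher dose and had a window, 7 of 8 held CCAAT, of those that fell 9 of 11 did, and of those that were not called 4 of 8 did. SREBF1, the most reduced of the members, was among the 7 members with no CCAAT match.

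**Figure D1:**
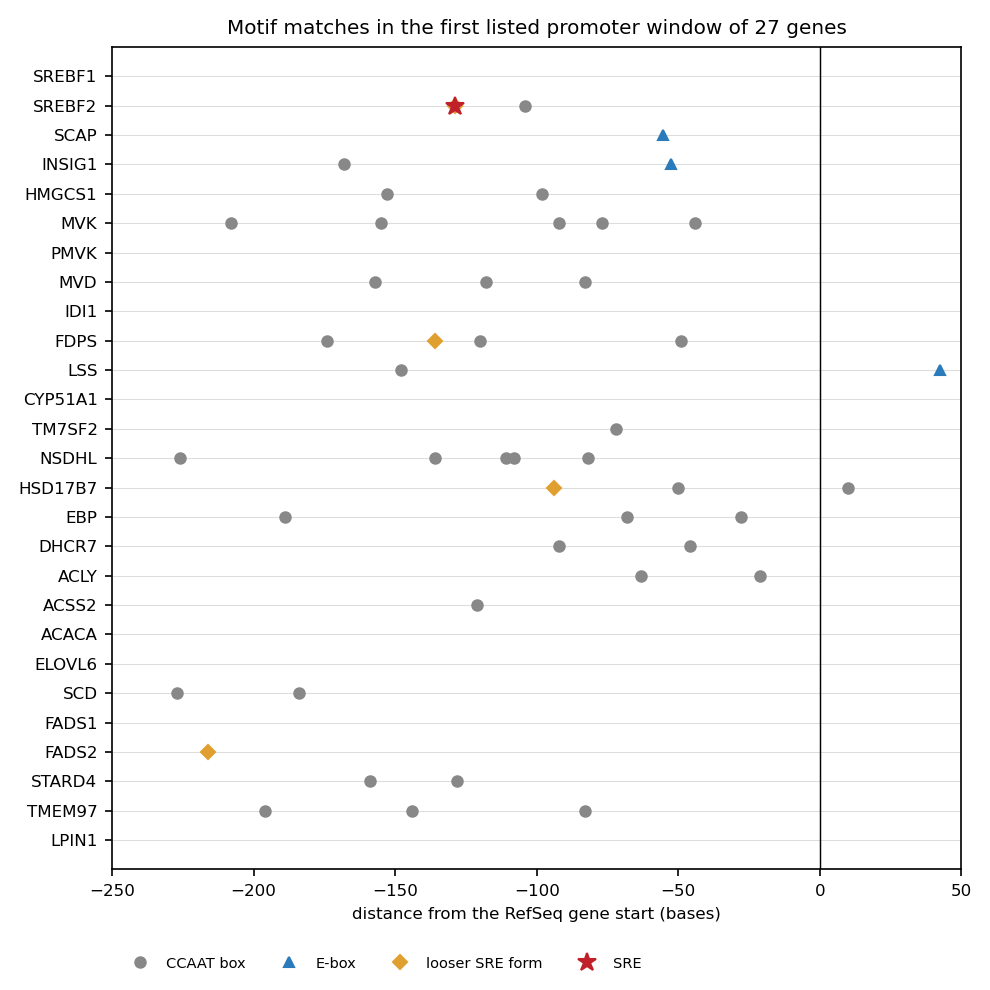
Positions of motif matches in the first listed promoter window of 27 members, as distance in bases from the RefSeq gene start (vertical line). Circles are CCAAT matches, triangles E-box matches, diamonds the looser SRE form and the star the SRE of SREBF2. Matches counted in a gene's other windows, such as those of IDI1 and ACACA, are not drawn.

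Reads on genes numbered 26255079 to 30280322 per library. The members were well covered, from 849 reads for TM7SF2 to 28842 for SCD in a library. The labelled line was checked against its markers. VIM, CD44, AXL and CAV1 had 655 to 3749 CPM (read counts scaled to a common library size after TMM normalization), and all 4 were lower at the higher dose (−0.45 to −0.21 on the log2 scale). ESR1, PGR and ALB were at or near 0 in every library (at most 0.177 CPM), PTPRC and PECAM1 stayed at 1.94 CPM or less, and GATA3 (9.40 to 11.03 CPM) and COL1A1 (5.95 to 7.20 CPM) were low. The untreated libraries differed from each other across the members. CPM was higher in untreated a than in untreated b for 29 of 31 members, with a median difference of 0.06 on the log2 scale, against 48.5% of all genes tested. At the lower dose 15 of 31 members, and at the higher dose 20 of 31, were higher in library a. The part of this shared difference in the changes below was not tested, and calls that changed without 1 untreated library are given with each gene.

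At the lower dose 15 of 31 members were called lower than in untreated cells (48.4%) and 1, TMEM97, was called higher (3.23%). Over all genes tested 15.9% were called lower and 16.7% higher. The shares over all genes here and below include genes with few reads, such as PTPRC with 4 to 14 in a library. Every member had at least 849 reads, which lets smaller changes be called, and no share matched for read depth was computed. At the higher dose 12 members were lower (38.7%, against 28.2% of all genes) and 10 were higher (32.3%, against 28.1%). Between the doses 12 members were higher at the higher than at the lower dose (38.7%, against 16.4%), and 2, SREBF2 and ACSS2, were lower (6.45%, against 17.6%). The median log2 fold change over members was −0.09 at the lower dose (all genes tested, −0.0021), −0.05 at the higher (all genes, −0.0008) and 0.06 between the doses (all genes, −0.0009). The changes were small, from −0.47 to 0.52 on the log2 scale. The test draws its estimate of a gene's spread partly from all genes. For some called members the untreated libraries lay well apart, such as SCD (1048 and 951 CPM) and DHCR7 (313 and 284 CPM). A call is an adjusted p under 0.05 in edgeR's quasi-likelihood test over all genes. The 2 untreated libraries served as controls for both doses.

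**Figure D2:**
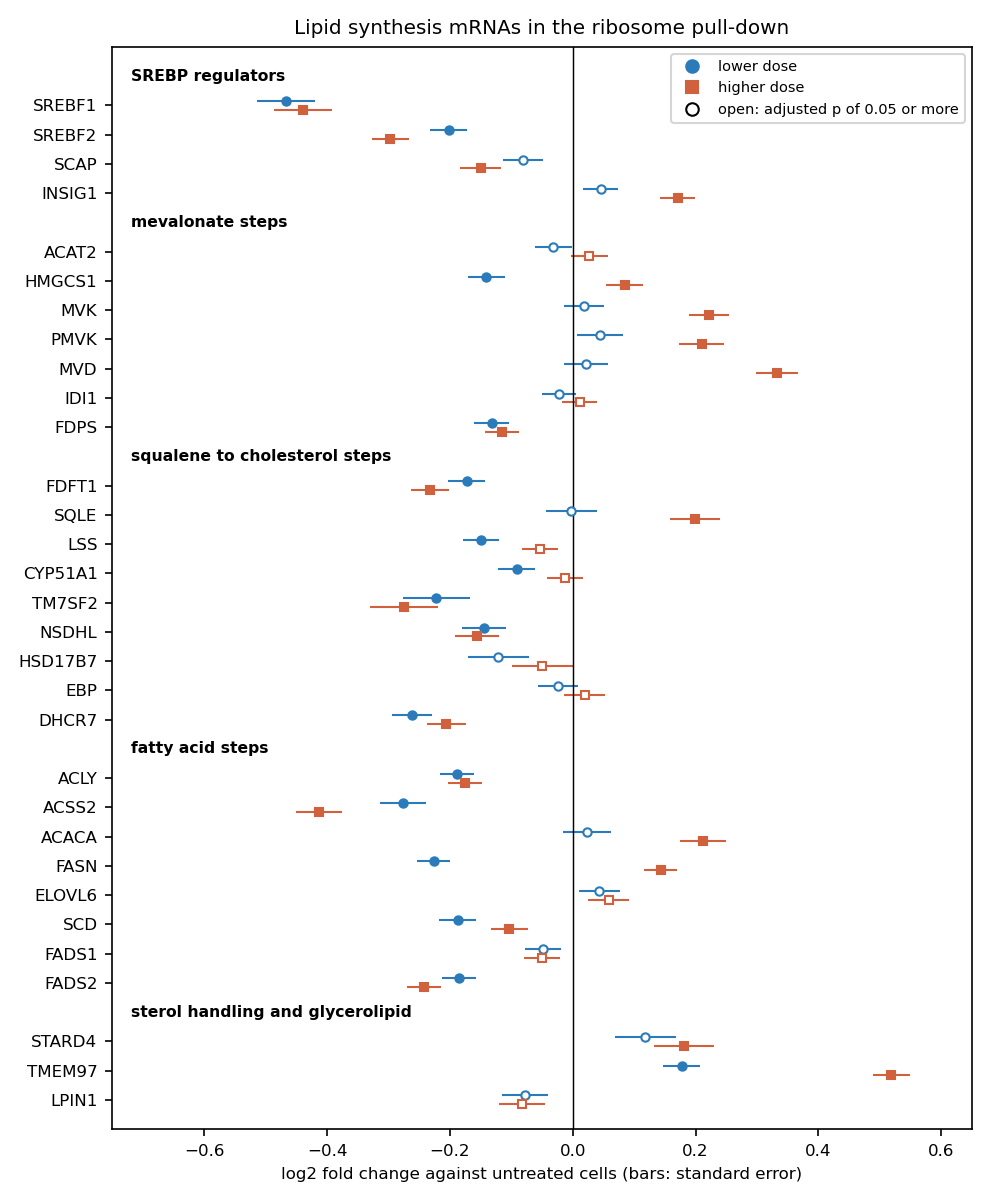
Log2 fold change of each of the 31 genes against untreated cells, with standard errors, at the lower dose (circles) and the higher dose (squares), grouped by role. Filled symbols passed the threshold; SREBF1 had −0.47 and −0.44, FASN −0.23 and 0.14, and TMEM97 0.18 and 0.52.

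The mRNAs of the SREBPs themselves fell at both doses, while the mRNA of their retention factor INSIG1 rose at the higher dose. SREBF1 had 81.4 and 73.3 CPM in the untreated libraries, 53.9 and 57.8 at the lower dose, and 60.7 and 53.2 at the higher dose. Every treated library lay below both untreated libraries, and the treated groups overlapped. The change of SREBF1 was −0.47 ± 0.05 (SE, n = 2 libraries per group, adjusted p = 1.64e-11) at the lower dose and −0.44 ± 0.05 (adjusted p = 1.27e-11) at the higher dose. The difference between the doses was 0.03 ± 0.05 (adjusted p = 0.709), so a 10-fold step in dose gave no detectable further change. After values were corrected for transcript length and GC content, SREBF1 had −0.38 at the lower and −0.33 at the higher dose, and both calls were kept. SREBF1 shares exon sequence with RAI1 on the other strand, and RAI1 had −0.0033 and −0.02 at the same doses, neither past the threshold.

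SREBF2 had 225 and 216 CPM in untreated cells, 191 in each lower dose library, and 177 and 181 at the higher dose. The 3 groups did not overlap and stepped down with dose. It fell by 13.1% at the lower dose (−0.20 ± 0.03, adjusted p = 2.60e-07) and by 18.6% at the higher dose (−0.30 ± 0.03, adjusted p = 1.59e-12). The step between the doses was −0.10 ± 0.03 (adjusted p = 0.0113), and it was lost with DESeq2 (adjusted p = 0.0599) and after values were corrected for transcript length and GC content (−0.03, adjusted p = 0.394). It was also lost without lower dose a (adjusted p = 0.0552), lower dose b (0.0627) or higher dose a (0.138). That correction reduced the changes of SREBF2 to −0.11 at the lower and −0.15 at the higher dose. SCAP, the SREBP escort, had −0.08 ± 0.03 at the lower dose (adjusted p = 0.0514). It passed there with RLE scaling (adjusted p = 0.0444) and with no low-count filter (0.0414). SCAP was also called lower at that dose without untreated b (−0.10) or without lower dose b (−0.12). It fell at the higher dose (−0.15 ± 0.03, adjusted p = 9.41e-05), where the correction gave −0.03 (adjusted p = 0.472).

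INSIG1 had 429 and 401 CPM in untreated cells, 426 and 430 at the lower dose, and 467 in each higher dose library. The lower dose values lay within or beside the untreated range, and the higher dose libraries were above all others. INSIG1 rose by 12.6% at the higher dose (0.17 ± 0.03, adjusted p = 8.47e-07), against 0.05 ± 0.03 (adjusted p = 0.232) at the lower dose. The difference between the doses passed the test (0.13 ± 0.03, adjusted p = 0.000357). Without untreated a, INSIG1 was also called higher at the lower dose (0.09, adjusted p = 0.0224).

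Of the 7 mevalonate enzymes, 4 rose at the higher dose (57.1%, against 28.1% of all genes) and 1 fell (14.3%, against 28.2%). At the lower dose 0 rose (against 16.7%) and 2 fell (28.6%, against 15.9%). MVD, which decarboxylates the diphosphorylated mevalonate to isopentenyl diphosphate, had 128 and 120 CPM in untreated cells, 131 and 120 at the lower dose, and 156 in each higher dose library. It rose by 25.9% at the higher dose (0.33 ± 0.03, adjusted p = 5.32e-12), and its higher dose libraries stood above the other 4. The kinases before it in the pathway rose with it at the higher dose, mevalonate kinase MVK by 16.6% (0.22 ± 0.03) and phosphomevalonate kinase PMVK by 15.6% (0.21 ± 0.04). At the lower dose the 3 genes had 0.02 to 0.04 and did not pass. With the length and GC correction PMVK, a short transcript, had 0.14 at the higher dose. MVK overlaps MMAB on the other strand, and MMAB rose at both doses (0.09, adjusted p = 0.0412, and 0.15, adjusted p = 0.00011). The library kit does not mark strand, so reads from the shared stretch cannot be assigned to either gene.

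HMGCS1, the synthase that makes HMG-CoA at the start of the branch, behaved differently at each dose. It had 226 and 219 CPM in untreated cells, 204 and 199 at the lower dose, and 242 and 231 at the higher dose. The 3 groups did not overlap, with the lower dose lowest and the higher dose highest. HMGCS1 fell by 9.29% at the lower dose (−0.14 ± 0.03, adjusted p = 0.000196) and rose by 6.06% at the higher dose (0.08 ± 0.03, adjusted p = 0.0136). The rise was lost with DESeq2 (adjusted p = 0.0628), without untreated b (0.06, adjusted p = 0.151) and without higher dose a (0.05, adjusted p = 0.288). FDPS, further down the branch, fell by 8.74% at the lower and fell by 7.67% at the higher dose. ACAT2, the cytosolic acetoacetyl-CoA thiolase, and IDI1, the isopentenyl diphosphate isomerase, had changes between −0.03 and 0.03 in both comparisons with untreated cells and did not pass. The values of ACAT2 depended on the untreated library used. It was called lower at the lower dose without untreated b (−0.09, adjusted p = 0.0353) and higher at the higher dose without untreated a (0.08, adjusted p = 0.0455), and it was also called higher at the higher dose with the length and GC correction (0.075, adjusted p = 0.0171).

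At the lower dose 6 of the 9 enzymes from squalene to cholesterol fell (66.7%, against 15.9% of all genes) and 0 rose (against 16.7%). At the higher dose 4 fell (44.4%, against 28.2%), 1 rose (11.1%, against 28.1%) and 4 were not called. DHCR7, the reductase of the last step to cholesterol, had 313 and 284 CPM in untreated cells, 247 and 251 at the lower dose, and 254 and 264 at the higher dose. All treated libraries were below both untreated libraries. DHCR7 fell by 16.6% (−0.26 ± 0.03, adjusted p = 2.58e-09) and by 13.3% (−0.21 ± 0.03, adjusted p = 1.57e-07). With the length and GC correction DHCR7 had −0.22 and −0.16. TM7SF2, a sterol C14 reductase and the least covered member, had 40.1 and 36.8 CPM in untreated cells, 31.6 and 34.2 at the lower dose, and 30.1 and 33.2 at the higher dose. It fell by 14.3% (−0.22 ± 0.05, adjusted p = 0.00106) and fell by 17.4% (−0.28 ± 0.06, adjusted p = 2.62e-05), with overlapping treated groups.

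FDFT1, the squalene synthase that commits carbon to sterols, fell by 11.3% at the lower and fell by 14.9% at the higher dose. The C4 decarboxylating dehydrogenase NSDHL fell by 9.54% and then fell by 10.2%. Neither differed between the doses beyond its error (−0.06 ± 0.03, adjusted p = 0.133, and −0.01 ± 0.04, adjusted p = 0.857). SQLE, the squalene epoxidase and a rate-limiting step of the pathway, went the other way. It had −0.0026 ± 0.04 at the lower dose (adjusted p = 0.97) and rose by 14.8% at the higher dose (0.20 ± 0.04, adjusted p = 3.37e-05), from 57.7 ± 1.3 to 66.2 ± 0.26 CPM (SD, n = 2). HSD17B7 (−0.12, adjusted p = 0.0532, and −0.05) and the isomerase EBP (−0.02 and 0.02) did not pass at either dose. At the lower dose HSD17B7 lay near the threshold. It passed there with RLE scaling (adjusted p = 0.0476), no low-count filter (0.0466) and a replicate block (0.0493), and was called lower without lower dose a (−0.17). With the length and GC correction HSD17B7 was called lower at both doses (−0.22, adjusted p = 0.00013, and −0.19, adjusted p = 0.000598).

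In the fatty acid branch 5 of 8 enzymes fell at the lower dose (62.5%, against 15.9% of all genes) and 0 rose (against 16.7%). At the higher dose 4 fell (50%, against 28.2%) and 2 rose (25%, against 28.1%). ACSS2, which makes acetyl-CoA from acetate, had 148 and 131 CPM in untreated cells, 116 and 113 at the lower dose, and 105 and 103 at the higher dose. The 3 groups did not overlap. ACSS2 fell by 17.4% at the lower dose (−0.28 ± 0.04, adjusted p = 3.42e-08) and fell by 24.9% at the higher dose (−0.41 ± 0.04, adjusted p = 6.02e-14). With the length and GC correction ACSS2 had −0.24 and −0.35. The step between the doses (−0.14 ± 0.04, adjusted p = 0.00404) was lost with DESeq2 (adjusted p = 0.0547) and without higher dose b (adjusted p = 0.0651). ACLY, which makes acetyl-CoA from citrate, fell by 12.2% and fell by 11.5% at the doses in the same order, and had −0.13 and −0.07 with the correction.

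FASN, the fatty acid synthase, had 641 and 630 CPM in untreated cells, 553 and 533 at the lower dose, and 717 and 687 at the higher dose. The groups did not overlap, and the order was the same as for HMGCS1. FASN fell by 14.5% at the lower dose (−0.23 ± 0.03, adjusted p = 2.29e-09), rose by 10.4% at the higher dose (0.14 ± 0.03, adjusted p = 1.04e-05), and was 29.2% higher at the higher than at the lower dose (0.37 ± 0.03, adjusted p = 3.32e-16). Its transcript is long and rich in G and C (8565 nt, 65.3%), and after the correction for these properties the fall was −0.10 and the rise 0.31. ACACA, the acetyl-CoA carboxylase that supplies malonyl-CoA to FASN, had 0.02 ± 0.04 at the lower dose (adjusted p = 0.693) and rose by 15.8% at the higher dose (0.21 ± 0.04, adjusted p = 3.52e-06). With the correction ACACA, the longest of the members at 9961 nt, had 0.10 (adjusted p = 0.0294) and 0.36.

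The desaturases SCD and FADS2 fell with FASN at the lower dose and, unlike FASN, were also called lower at the higher dose. SCD, the stearoyl-CoA desaturase, fell by 12.2% at the lower dose (−0.19 ± 0.03, adjusted p = 1.38e-06) and fell by 6.92% at the higher dose (−0.10 ± 0.03, adjusted p = 0.00264). The higher dose call of SCD was lost with DESeq2 (adjusted p = 0.174), without untreated a (−0.04, adjusted p = 0.347), without higher dose b (−0.07, adjusted p = 0.122) and with the correction (−0.01, adjusted p = 0.774). FADS2, the delta-6 desaturase, fell by 12.0% and fell by 15.4% (−0.19 ± 0.03 and −0.24 ± 0.03), or −0.11 and −0.14 with the correction. Its exons overlap those of FADS1, the delta-5 desaturase, and of FEN1. FEN1 had −0.19 (adjusted p = 4.45e-07) and −0.18 (adjusted p = 6.05e-07), and FADS1 had −0.05 at each dose and did not pass, but was called lower at both doses without untreated b (−0.10, adjusted p = 0.00844, and −0.10, adjusted p = 0.00389). The elongase ELOVL6 had 0.04 ± 0.03 and 0.06 ± 0.03 and did not pass.

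TMEM97, a sterol-responsive membrane protein also known as the sigma-2 receptor, had the largest rise of the 31 genes at both doses. It had 159 and 154 CPM in untreated cells, 178 and 177 at the lower dose, and 224 and 225 at the higher dose. The 3 groups did not overlap and rose with dose. TMEM97 rose by 13.1% at the lower dose (0.18 ± 0.03, adjusted p = 5.65e-06) and by 43.2% at the higher dose (0.52 ± 0.03, adjusted p = 1.60e-21). The difference between the doses was 0.34 ± 0.03 (adjusted p = 8.62e-14). IFT20, whose exons overlap it on the other strand, had 0.16 (adjusted p = 0.088) and −0.05 (adjusted p = 0.598). STARD4, a cytosolic sterol carrier, had 0.12 ± 0.05 at the lower dose (adjusted p = 0.0573) and rose by 13.4% at the higher dose (0.18 ± 0.05, adjusted p = 0.00129). LPIN1, a phosphatidate phosphatase of glycerolipid synthesis, had −0.08 ± 0.04 at each dose (adjusted p = 0.102 and 0.0536). At the higher dose it passed with no low-count filter (adjusted p = 0.0493) and with only the 2 groups compared (0.0413). It was also called lower there without lower dose a (−0.08). Without untreated b, LPIN1 was called lower at both (−0.14, adjusted p = 0.0108, and −0.14, adjusted p = 0.00434).

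**Figure D3:**
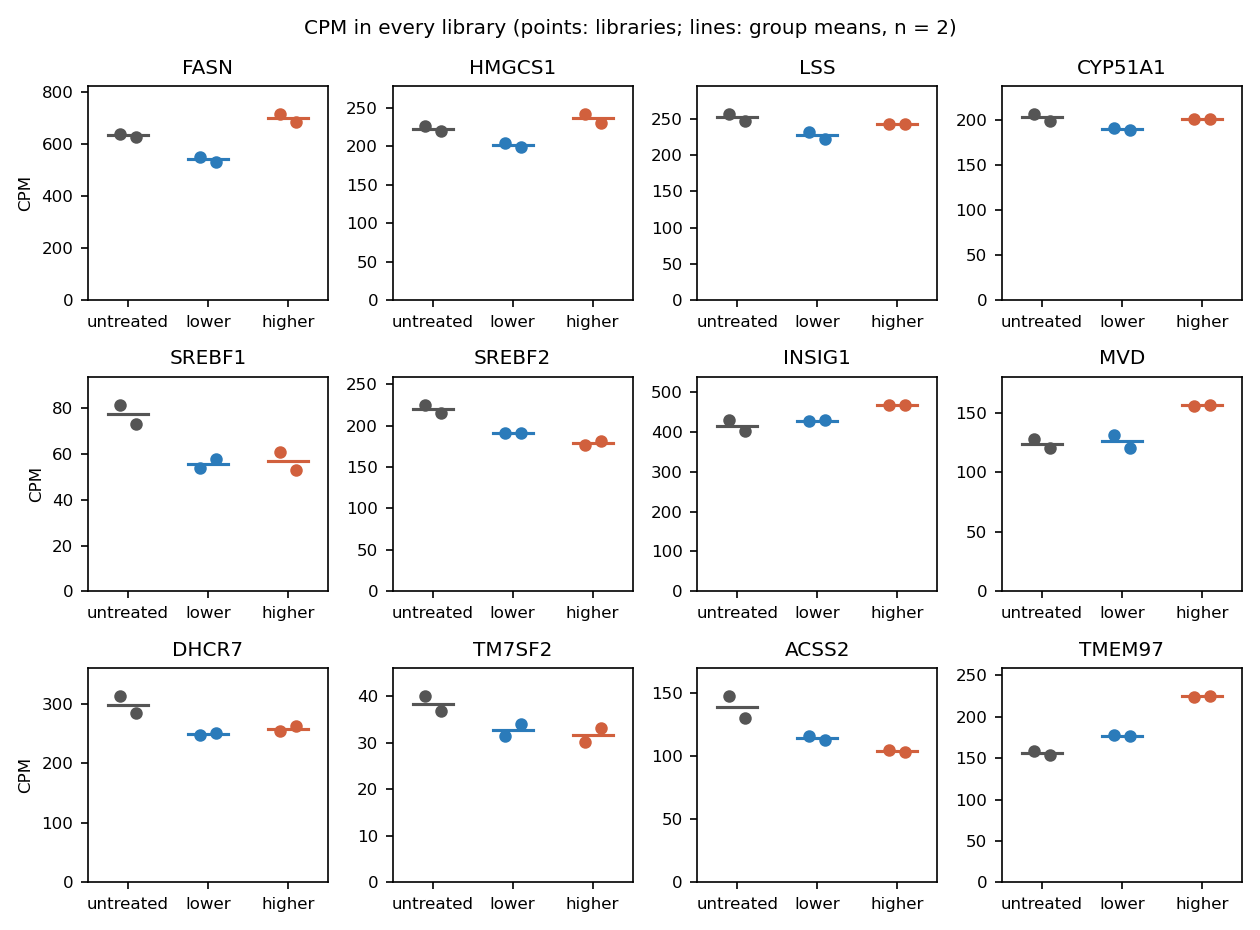
CPM of 12 genes in every library (points) with group means (lines, n = 2), on axes that start at 0. FASN and HMGCS1 were lowest at the lower dose and highest at the higher dose, SREBF1 and ACSS2 were below untreated cells at both doses, and TMEM97 rose from 157 to 177 and 225 CPM.

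Genes reduced by the lower dose and not by the higher were defined as those called lower against untreated cells at the lower dose, not called lower at the higher dose, and called higher at the higher than at the lower dose, which is the test of the difference. This held for 4 of 31 members (12.9%), FASN and HMGCS1, which rose at the higher dose, and LSS and CYP51A1, against 0.465% of all genes tested (63 genes). The members were chosen with earlier results of these data known, and the share over all genes was not matched for read depth. These shares are therefore a description and not a test of enrichment. FASN and HMGCS1 met the definition in all 12 alternative analyses, LSS in 7 and CYP51A1 in 6. SCD met it in 3, with the length and GC correction, without untreated a and without higher dose b. LSS, the lanosterol synthase, had 256 and 247 CPM in untreated cells, 232 and 222 at the lower dose, and 242 in each higher dose library. Its higher dose libraries lay between the other groups without overlap. LSS fell by 9.86% at the lower dose (−0.15 ± 0.03, adjusted p = 5.50e-05) and had −0.05 ± 0.03 (adjusted p = 0.122) at the higher dose, with a difference between the doses of 0.10 ± 0.03 (adjusted p = 0.00828).

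For LSS the length and GC correction removed the lower dose call (−0.07, adjusted p = 0.0675) and turned the higher dose value to a rise (0.08, adjusted p = 0.00776). The difference between the doses of LSS was lost without lower dose b (0.06, adjusted p = 0.231), higher dose a (adjusted p = 0.0583) or higher dose b (adjusted p = 0.0574), and LSS was called lower at the higher dose without untreated b (−0.08, adjusted p = 0.0351). CYP51A1, the lanosterol 14-alpha-demethylase, had 207 and 199 CPM in untreated cells, 192 and 189 at the lower dose, and 201 in each higher dose library. The higher dose values lay inside the untreated range. It fell by 6.13% at the lower dose (−0.09 ± 0.03, adjusted p = 0.0143) and had −0.01 ± 0.03 (adjusted p = 0.747) at the higher dose, with a difference of 0.08 ± 0.03 (adjusted p = 0.0353). The lower dose call of CYP51A1 was lost with DESeq2 (adjusted p = 0.0549), and leaving out untreated a (−0.07, adjusted p = 0.152) or lower dose b (−0.08, adjusted p = 0.114) also ended it. Its difference between the doses was lost with DESeq2 (adjusted p = 0.113) and without any 1 of the 4 treated libraries (adjusted p = 0.0717 to 0.211). SCD fell at both doses and less at the higher, with a difference of 0.08 ± 0.03 (adjusted p = 0.0245) that DESeq2 did not call (adjusted p = 0.37). It was also lost without lower dose a (adjusted p = 0.181) and without higher dose a (0.351).

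The sterol and fatty acid branches were then set side by side. At the lower dose 8 of 16 sterol enzymes (50%) and 5 of 8 fatty acid enzymes (62.5%) fell, against 15.9% of all genes, and 0 rose in either. The median log2 fold change was −0.11 in the sterol and −0.19 in the fatty acid branch. By library, the median deviation from untreated cells was −0.08 and −0.13 for the sterol branch and −0.19 and −0.16 for the fatty acid branch. The untreated libraries had 0.03 and −0.03 in each branch. ACLY and ACSS2 supply acetyl-CoA to both branches, and without them the fatty acid median was −0.12. With the length and GC correction the medians were −0.0843 in the sterol and −0.1067 in the fatty acid branch, so the gap between the branches was small there.

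At the higher dose 5 sterol enzymes were lower (31.2%, against 28.2% of all genes), 5 were higher (31.2%, against 28.1%) and 6 were not called, with a median of −0.0008. These shares lay near those of all genes. Its rises were HMGCS1, MVK, PMVK, MVD and SQLE, 4 of them in the mevalonate steps. Its falls were FDPS, FDFT1, TM7SF2, NSDHL and DHCR7, 4 of them at or after squalene synthesis. The fatty acid branch had 4 lower (ACLY, ACSS2, SCD and FADS2) and 2 higher (ACACA and FASN), or 50% and 25% of the branch, with a median of −0.08. That median was 0.0044 without ACLY and ACSS2. With the length and GC correction it was 0.0188, beside a median over all genes of 0.0205. Higher dose libraries had −0.0043 and −0.0060 in the sterol branch and −0.05 and −0.10 in the fatty acid branch. Between the doses 7 sterol enzymes were higher (43.8%, against 16.4% of all genes) and 0 lower, with a median of 0.07. Of the fatty acid enzymes 3 were higher (37.5%) and 1 lower (12.5%, against 17.6%), with a median of 0.01. That fatty acid median was 0.0578 with the length and GC correction (sterol, 0.0757, and all genes, 0.0110). It was 0.0497 without ACLY and ACSS2 and 0.0480 without higher dose b, so its distance from the sterol value depended on these choices. Within each branch the members spread more widely at the higher dose, from −0.28 to 0.33 in the sterol and from −0.41 to 0.21 in the fatty acid branch. More genes were also called over all genes tested at the higher dose (7626, against 4418 at the lower dose). The spread over all genes was not measured, so the wider spread cannot be called particular to the branches. These are descriptions of named genes, and the difference between branches was not tested.

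**Figure D4:**
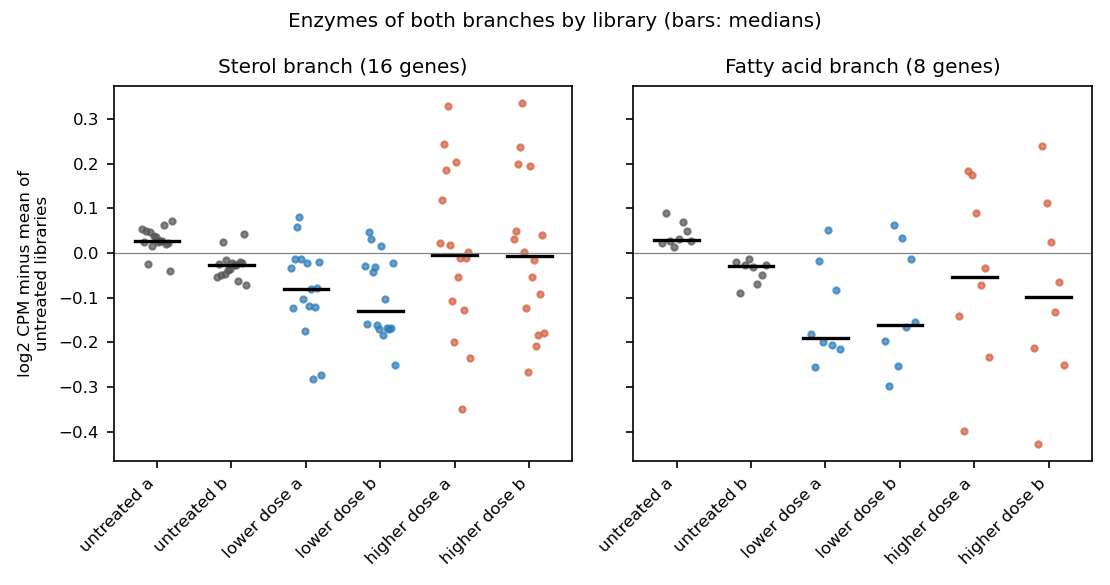
Log2 CPM of each sterol enzyme (left, 16 genes) and fatty acid enzyme (right, 8 genes) minus its mean over the untreated libraries, by library, with the median as a bar. Most points lay below 0 at the lower dose, and they spread in both directions at the higher dose.

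Other genes of the pathway were taken from lists compiled with the members. Of 5 further sterol enzymes, 3 fell (60%, against 15.9% of all genes) and 0 rose at the lower dose. Among them were MSMO1 (−0.18 ± 0.03) and SC5D (−0.16 ± 0.03). At the higher dose 2 fell (40%, against 28.2%) and 1 rose (20%, against 28.1%). MSMO1 was among those that fell there (−0.13 ± 0.03), and ERG28 rose (0.10 ± 0.03). SC5D, the lathosterol desaturase, had −0.0078 ± 0.03 at that dose (adjusted p = 0.86). SC5D differed between the doses (0.15 ± 0.03, adjusted p = 0.000309) and so met the definition of a gene reduced by the lower dose and not by the higher.

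Of 28 tested genes of further fatty acid and glycerolipid synthesis (30 listed), 8 fell (28.6%, against 15.9% of all genes) and 0 rose at the lower dose. The higher dose gave 9 lower (32.1%, against 28.2%) and 7 higher (25%, against 28.1%), which is near the shares of all genes. The lipin LPIN2 fell most at the higher dose (−0.58 ± 0.04), followed by the enoyl reductase TECR (−0.27 ± 0.03) and the mitochondrial acetyl-CoA carboxylase ACACB (−0.24 ± 0.09). Rises were led by MID1IP1, an activator of acetyl-CoA carboxylase (0.29 ± 0.04), MCAT of mitochondrial fatty acid synthesis (0.28 ± 0.06) and the glycerol-phosphate acyltransferase GPAM (0.25 ± 0.08).

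Among 11 other regulators of SREBPs or of sterol-dependent degradation, 3 rose and 3 fell at the lower dose (27.3% each). Over all genes 16.7% rose and 15.9% fell there. At the higher dose 4 rose and 4 fell (36.4% each, against 28.1% and 28.2% of all genes). MBTPS1, the site-1 protease that makes the first cut in SREBPs, fell by 0.17 ± 0.03 at the lower and 0.44 ± 0.03 at the higher dose on the log2 scale. The ubiquitin ligase MARCHF6, which acts in sterol-linked degradation at the endoplasmic reticulum, fell at the higher dose (−0.61 ± 0.05). FBXW7, a ubiquitin ligase subunit that targets nuclear SREBPs (0.67 ± 0.09), and PAQR3, a Golgi anchor of the SCAP complex (0.50 ± 0.06), rose. Of the genes of sterol uptake, efflux and storage, 12 were tested (13 listed). At the lower dose 5 fell (41.7%, against 15.9% of all genes) and 2 rose (16.7%, as over all genes). At the higher dose 6 fell (50%, against 28.2%) and 2 rose (16.7%, against 28.1%). The lysosomal cholesterol exporter NPC1 (−0.68 ± 0.04), the efflux pump ABCA1 (−0.48 ± 0.18) and the sterol-sensing nuclear receptor NR1H3 (−0.34 ± 0.07) fell most at the higher dose. The lipoprotein receptor SCARB1 (0.30 ± 0.05) and the nuclear receptor NR1H2 (0.27 ± 0.03) rose.

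Levels were compared between members per length of the longest RefSeq-linked transcript, as CPM per kilobase in untreated cells. FDPS was highest at 357, followed by SCD at 186 and FADS2 at 184. INSIG1 had 138 and FASN 74.2. The lowest were ACACA at 7.61 and STARD4 at 8.22, with SREBF1 at 18.2 and SREBF2 at 38.6. The transcript form used by these cells was not measured, so these levels hold for the annotated length only.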

How the data were processed

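Polyadenylated RNA bound to EGFP-L10a ribosomes was sequenced in 6 libraries, 2 per group, and groups were taken from the titles. The authors deposited raw HTSeq counts per gene symbol. CASAVA 1.8.1, TopHat 1.4.0 and hg19 are listed in the submitters' processing notes. Not given in the sources used here were annotation, counting mode and strand setting. HTSeq's 5 summary lines (9.4% to 10.2% of reads) were left out, as were genes that edgeR's filterByExpr removed (8071).

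Libraries held 26255079 to 30280322 reads on genes, which puts a floor of 3 reads at 0.0991 to 0.114 CPM (counting error only). Replicates differed by more than counting noise (chi-square per degree of freedom 1.52 to 1.98), so each was counted. With 2 libraries per group, p-values measure only the spread between these libraries.

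All libraries entered 1 fit with 3 group means in edgeR 4.0.16 under R 4.3.3 (TMM, robust quasi-likelihood F test, two-sided, Benjamini-Hochberg over 13548 genes, threshold 0.05, 3 residual degrees of freedom). TMM assumes that most genes did not change. At the higher dose 7626 of the 13548 genes were called against untreated cells, 3821 lower and 3805 higher. How far this affected the scaling was not tested. The biological coefficient of variation was 1.79%. Each standard error is the size of the log2 fold change divided by the root of its F statistic. Branch medians by library used log2 CPM with a prior count of 2. Alternatives were RLE scaling, DESeq2 1.42.0, no low-count filter, only the groups compared, a replicate block, a correction for transcript length and GC content, and leaving out each library. The correction removed a smooth trend (splines with 5 degrees of freedom) per library and used GENCODE 29 transcripts, with values for 87.2% of tested genes. Exon overlaps were taken from the same annotation, and 8 members overlapped a gene of the count files.

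Values in every library are given for members called at an absolute log2 fold change of at least 0.25, for members reduced by the lower dose and not by the higher, and for SREBF1, SREBF2 and INSIG1. Of other pathway lists, up to 3 called genes per direction are named, and some genes are not reported here. The members and lists were chosen with earlier results of these data known, so counts over them are descriptions.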

Additional observations from a re-analysis of the deposited data

How the results depend on the processing

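Of 1116 recomputed values of single members (31 genes, 3 comparisons, 12 alternatives), 1058 kept their direction and side of the threshold or passed in neither analysis, 30 lost a call, 27 gained a call and 1 reversed (LSS at the higher dose, 0.0843 with the length and GC correction). DESeq2 called 2562 genes against 4418 at the lower dose and 2758 against 4612 between the doses, and 0 members lower between the doses against 2. The correction gave 2 members higher at the lower dose against 1, 1 lower between the doses, and fatty acid medians of -0.11 (lower dose), 0.0188 (higher dose) and 0.0578 (between doses). Without ACLY and ACSS2 these medians were -0.12, 0.0044 and 0.0497. Over all genes the corrected medians were 0.0066, 0.0205 and 0.0110 in the same order. The correction and the smaller branch differ from the reported values by construction, and the cause of the other changes was not tested.

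Leaving out each library in turn gave 1 to 2 members higher at the lower dose, 1 to 3 lower between the doses, and 2 to 4 reduced by the lower dose and not by the higher. The fatty acid median ranged over -0.21 to -0.14 at the lower dose, -0.14 to -0.0197 at the higher dose and -0.0179 to 0.0480 between the doses, and the sterol median at the higher dose over -0.0353 to -0.0013. A lone remaining library was taken to vary like the other groups.

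Pairing of the libraries by the letters a and b was not detected over all genes. Deviations from the group means correlated at -0.045, 0.003 and -0.035 between groups. With 2 libraries per group, these correlations cannot exclude a shared batch that touched few genes. The replicate block called 16 members lower at the lower dose against 15, and 12 lower and 10 higher at the higher dose, as without it. It called 4320, 7561 and 4516 genes in the 3 comparisons.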
